A study of Mus musculus with 6 samples.

Results

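A set of 9 genes of the mouse Slc22 family of organic anion and cation transporters were followed through an RNA sequencing (RNA-seq) comparison of kidney tubular epithelial cells. They were taken by gene symbol (Slc22a2, Slc22a4, Slc22a5, Slc22a6, Slc22a7, Slc22a8, Slc22a12, Slc22a13 and Slc22a18) from the 46095 gene rows of the count table. All 9 were among the 14611 genes that passed the filter on low counts. The cells, called PTECs in the labels, were primary renal tubular epithelial cells freshly isolated from mice of 10 weeks of age on a C57 background. In the 3 mice labelled VHL-KO (replicates 1, 2 and 4), Cre recombinase under the Ksp (Cdh16) promoter recombined floxed VHL alleles. In 3 other mice, which carried the label VHL-KO;SETD2-KO (numbered 2, 3 and 4), the same Cre recombined floxed VHL and floxed Setd2 alleles, so that loss of VHL, the substrate receptor of the ubiquitin ligase that degrades hypoxia-inducible factors, was shared by both labels, and Setd2, the enzyme that trimethylates lysine 36 of histone H3, was the intended difference. No library with intact VHL was analysed here. Cdh16 is a cadherin of the tubular epithelium, and the Cre line is known for recombination mainly in the distal nephron and collecting duct, with less in the proximal tubule, where most of the 9 transporters are made.

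SLC22 proteins are membrane carriers with a shared fold that move charged organic solutes. In the proximal tubule, anion carriers on the blood side take up drugs, toxins and metabolites in exchange for dicarboxylates, a cation carrier on the same side takes up amines along the membrane potential, and other carriers on the luminal side recover carnitine and urate or pass solutes into the urine. Slc22a6 (OAT1) and Slc22a8 (OAT3) are the classical anion carriers of this step, and their genes lie side by side in the genome.

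That neighbourhood and the start regions of 4 genes are shown first, because the values that follow differ between the neighbouring genes Slc22a6 and Slc22a8, and because Slc22a4 and Slc22a5 shared a level in VHL-KO replicate 4 near that of the other VHL-KO libraries. In the GENCODE M21 annotation of GRCm38, Slc22a8 and Slc22a6 lay on the plus strand of chromosome 19 with 6203 bases between them, and Slc22a5 and Slc22a4 lay on the minus strand of chromosome 11 with the related gene Slc22a21 between them. RefSeq promoter windows of GRCm38.p6, from 250 bases before to 50 bases after the transcript start, matched 8 of the 9 genes, and Slc22a7 was not matched. The RefSeq start of Slc22a8 lies inside the longer GENCODE gene model. Capitals mark CpG dinucleotides, in which the windows of the first pair and those of the second differ. All 4 sequences read 5′ to 3′ on the strand of the gene.
Slc22a6 (chr19:8617746-8618045, plus strand): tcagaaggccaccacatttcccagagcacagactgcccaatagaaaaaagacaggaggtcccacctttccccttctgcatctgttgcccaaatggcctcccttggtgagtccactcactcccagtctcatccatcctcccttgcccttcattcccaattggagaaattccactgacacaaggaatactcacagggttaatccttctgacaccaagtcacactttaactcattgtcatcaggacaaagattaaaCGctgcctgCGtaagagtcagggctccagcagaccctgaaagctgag
Slc22a8 (chr19:8592932-8593231, plus strand): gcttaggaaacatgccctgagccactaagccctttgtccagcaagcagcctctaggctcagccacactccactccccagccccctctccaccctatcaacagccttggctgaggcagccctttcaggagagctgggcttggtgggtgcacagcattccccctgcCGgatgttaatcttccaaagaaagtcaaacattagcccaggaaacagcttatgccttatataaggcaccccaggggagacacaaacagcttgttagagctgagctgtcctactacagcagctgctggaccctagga
Slc22a4 (chr11:54028055-54028354, minus strand): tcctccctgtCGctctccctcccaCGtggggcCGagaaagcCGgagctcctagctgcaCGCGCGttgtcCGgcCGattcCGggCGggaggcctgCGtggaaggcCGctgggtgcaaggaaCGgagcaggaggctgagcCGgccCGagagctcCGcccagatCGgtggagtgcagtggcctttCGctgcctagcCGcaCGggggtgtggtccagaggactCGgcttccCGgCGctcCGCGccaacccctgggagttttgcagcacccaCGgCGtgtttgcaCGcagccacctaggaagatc
Slc22a5 (chr11:53891654-53891953, minus strand): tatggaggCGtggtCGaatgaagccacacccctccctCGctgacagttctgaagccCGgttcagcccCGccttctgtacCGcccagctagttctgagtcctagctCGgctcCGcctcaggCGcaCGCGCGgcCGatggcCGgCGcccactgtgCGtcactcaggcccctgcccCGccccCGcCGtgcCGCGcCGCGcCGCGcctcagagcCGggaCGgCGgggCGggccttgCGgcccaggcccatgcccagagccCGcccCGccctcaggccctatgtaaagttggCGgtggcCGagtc

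The windows of Slc22a6 and Slc22a8 held 2 and 1 CpG dinucleotides. The windows of Slc22a5 and Slc22a4 held 34 and 29 CpG dinucleotides with a GC content of 72.7% and 69.0%. The 6 windows other than those of Slc22a4 and Slc22a5 held between 0 and 8 CpG, where the mean over all 32851 mouse promoter windows of the same length was 12.4. These counts describe letters and not methylation, which was not measured.

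Values below are CPM, counts divided by library size, scaled by TMM, the trimmed mean of M values, which corrects for differences in library composition. Fold changes compare the libraries labelled VHL-KO;SETD2-KO with those labelled VHL-KO and were estimated, with standard errors (SE) and unadjusted p-values, by the quasi-likelihood test of edgeR over all 14611 genes with Benjamini-Hochberg adjustment. A gene is called lower or higher at an unadjusted p under 0.05 with a fold change of at least 1.5, the thresholds of the study. Library totals ranged from 11168552 to 17883466 counts, and a floor of 3 counts corresponded to 0.159 to 0.280 CPM, for counting error only. VHL-KO replicate 4 stood apart, with a Spearman correlation across genes of at most 0.765 with any other library, where the best match of each other library was between 0.948 and 0.986, and with 11.3% of its counts in mitochondrial genes against 25.9% to 36.4% elsewhere. VHL-KO;SETD2-KO replicate 3 held 11704 counts of Xist and 1 count of Y-linked genes, where the other libraries held 0 to 4 and 260 to 3283. By these counts it was the only female library. Sex was thus not balanced between the labels, and its part in the values of this library cannot be told apart from other differences. Setd2 counts were 1179, 799 and 132 in the VHL-KO libraries and 1499, 1019 and 1429 in the VHL-KO;SETD2-KO libraries, with a log2 fold change of 0.52 (SE 0.64, edgeR adjusted p = 0.787). Setd2 was therefore not lower under the label that names its deletion, although reads from outside the floxed exons count towards the gene, and the groups are called by their labels throughout. Vhl had a log2 fold change of -0.26.

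As a group the 9 transporters were lower in the VHL-KO;SETD2-KO libraries on this scale: 6 of 9 (Slc22a2, Slc22a4, Slc22a6, Slc22a7, Slc22a12 and Slc22a18) were called lower, against 4.68% of all tested genes, and 0 were called higher, against 2.66%. The 9 were chosen with earlier results of these data known, so these shares describe the members and do not test them. Among the other Slc22 genes, 1 of 11 tested was called lower. The median log2 fold change of the 9 was -1.87, beside 0.0094 over all tested genes, and all 9 fitted changes were below 0, while 5 of 9 were when libraries were scaled to proximal tubule markers as described further on. No member passed edgeR's adjusted p of 0.05, which 0.00684% of tested genes did. The adjusted p of the 6 called members was 0.625. For 7 members every VHL-KO;SETD2-KO library lay below every VHL-KO library, a separation seen in 11% of tested genes in this direction and 9.62% in the other. With 3 libraries against 3, an exact permutation test cannot give a p below 0.1. Together the 9 genes took 0.229%, 0.224% and 0.532% of all counts in the VHL-KO libraries and 0.125%, 0.186% and 0.125% in the VHL-KO;SETD2-KO libraries. In bulk RNA, fewer proximal tubule cells and less of these mRNAs per cell cannot be told apart.

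**Figure D1:**
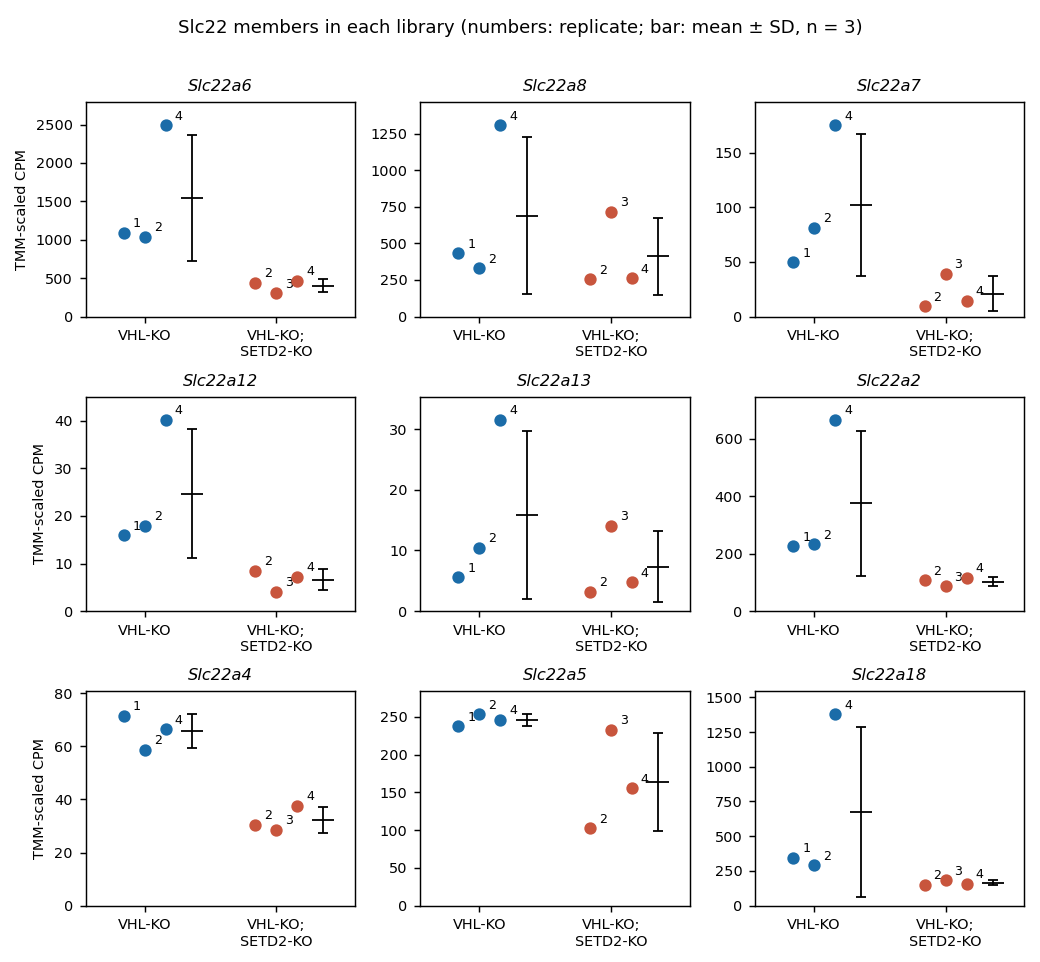
TMM-scaled CPM (linear axes from 0) of the 9 Slc22 genes in each of the 6 libraries, blue for VHL-KO and red for VHL-KO;SETD2-KO, with the replicate number beside each point and the mean ± SD of the 3 libraries in black. On this scale the labels overlap for Slc22a8 and Slc22a13 and do not overlap for the other 7 genes, and VHL-KO replicate 4 is the highest library for 7 of 9 genes.

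Slc22a6 (OAT1), which takes up p-aminohippurate and many acidic drugs from blood, had 1093, 1041 and 2493 CPM in VHL-KO replicates 1, 2 and 4 and 441, 302 and 468 CPM in VHL-KO;SETD2-KO replicates 2, 3 and 4. All VHL-KO libraries lay above all VHL-KO;SETD2-KO libraries, and replicate 4 was far above the other VHL-KO libraries. The means were 1542 ± 824 and 404 ± 89.3 CPM (SD, n = 3 each). Its log2 fold change was -1.93 (SE 0.53, unadjusted p = 0.00628), a 3.82-fold lower level. Without VHL-KO replicate 4 the log2 fold change was -1.41, and the gene was still called.

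Its neighbour Slc22a8 (OAT3), an anion carrier of the same membrane with overlapping substrates, had 431, 328 and 1308 CPM in the VHL-KO libraries and 254, 717 and 260 CPM in the VHL-KO;SETD2-KO libraries. The labels overlapped, because VHL-KO;SETD2-KO replicate 3 lay above VHL-KO replicates 1 and 2. The log2 fold change of -0.75 (SE 0.69, unadjusted p = 0.309) did not pass the threshold and became 0.11 without VHL-KO replicate 4. Leaving out VHL-KO;SETD2-KO replicate 3 instead gave -1.41.

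The ratio of Slc22a6 to Slc22a8 counts does not depend on library scaling. It was 2.53, 3.17 and 1.91 in the VHL-KO libraries and 1.74, 0.421 and 1.80 in the VHL-KO;SETD2-KO libraries. Slc22a6 therefore had more counts than Slc22a8 in 5 of 6 libraries and fewer in VHL-KO;SETD2-KO replicate 3. The lowest VHL-KO ratio lay just above the highest VHL-KO;SETD2-KO ratio. The exact two-sided permutation test on the log2 ratio gave p = 0.1, the smallest it can give here, and the ratio was chosen after the values were seen. Slc22a6 made up 38.4% to 44.95% of the counts of the 9 genes in 5 libraries and 18.8% in replicate 3.

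**Figure D2:**
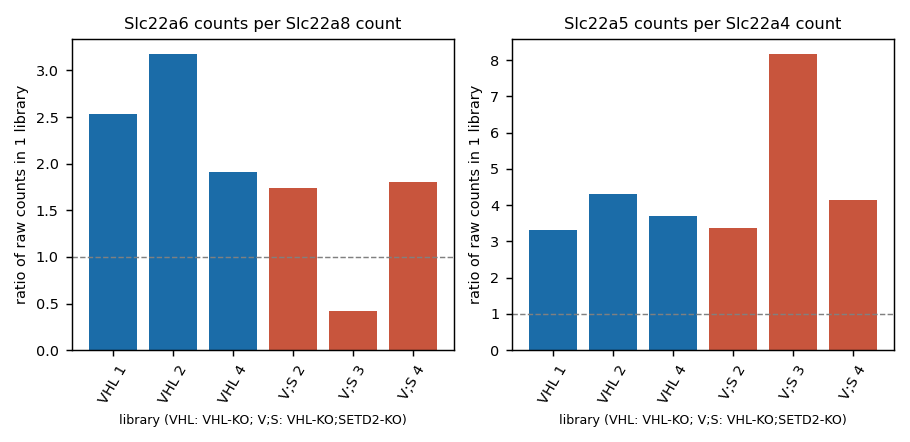
Ratio of raw counts within each library for the neighbouring genes Slc22a6 and Slc22a8 (left) and for Slc22a5 and Slc22a4 (right), with blue bars for VHL-KO (VHL), red bars for VHL-KO;SETD2-KO (V;S) and a dashed line at a ratio of 1. VHL-KO;SETD2-KO replicate 3 has the lowest Slc22a6 to Slc22a8 ratio (0.421) and the highest Slc22a5 to Slc22a4 ratio (8.17).

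Slc22a7 (OAT2), an anion carrier also made in liver, had 49.6, 81.2 and 175 CPM in the VHL-KO libraries and 9.49, 39.1 and 14.4 CPM in the VHL-KO;SETD2-KO libraries. The labels did not overlap, but VHL-KO;SETD2-KO replicate 3 came close to VHL-KO replicate 1. Its log2 fold change of -2.28 (SE 0.70, unadjusted p = 0.0112) was the largest of the 9, and it was -1.64 without VHL-KO replicate 4 and -3.08 without VHL-KO;SETD2-KO replicate 3.

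Slc22a12 (URAT1), the urate carrier of the luminal membrane, was a low gene with 263, 194 and 431 counts in the VHL-KO libraries and 160, 73 and 115 counts in the VHL-KO;SETD2-KO libraries. On the CPM scale these were 15.9, 17.9 and 40.2 against 8.49, 4.10 and 7.20, with no overlap. edgeR gave a log2 fold change of -1.90 (SE 0.52, unadjusted p = 0.00630). The gene overlaps Nrxn2 on the opposite strand, and since the strand setting of the counting is not given in the sources used here, reads of both cannot be told apart in the table.

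Slc22a13 (OAT10), a carrier of urate and nicotinate, had 5.57, 10.4 and 31.6 CPM in the VHL-KO libraries and 3.18, 14.1 and 4.76 CPM in the VHL-KO;SETD2-KO libraries. The labels overlapped, with VHL-KO;SETD2-KO replicate 3 above VHL-KO replicates 1 and 2. Its log2 fold change was -1.11 (SE 0.78, unadjusted p = 0.192) and shrank to -0.12 without VHL-KO replicate 4, while it was -1.98 without VHL-KO;SETD2-KO replicate 3. The Slc22a14 gene model spans this gene on the same strand, so its counts are uncertain.

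Slc22a2 (OCT2), the cation carrier of the blood side that takes up creatinine and metformin, had 226, 234 and 667 CPM in the VHL-KO libraries and 107, 85.8 and 116 CPM in the VHL-KO;SETD2-KO libraries. The VHL-KO;SETD2-KO libraries were close together and all lay below the VHL-KO libraries. The means were 375.6 ± 252 and 102.9 ± 15.5 CPM (SD, n = 3 each). The log2 fold change was -1.87 (SE 0.55, unadjusted p = 0.00912), and -1.16 without VHL-KO replicate 4.

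Slc22a4 (OCTN1), which carries ergothioneine, and Slc22a5 (OCTN2), which recovers carnitine from the filtrate, differed from the other 7 members in that VHL-KO replicate 4 was not raised. Slc22a4 had 71.5, 58.7 and 66.5 CPM in the VHL-KO libraries and 30.4, 28.6 and 37.6 CPM in the VHL-KO;SETD2-KO libraries. These groups were each tight and did not overlap, with means of 65.6 ± 6.44 and 32.2 ± 4.75 CPM (SD, n = 3 each). Slc22a4 had a log2 fold change of -1.03 (SE 0.36, unadjusted p = 0.0219), and -1.02 without VHL-KO replicate 4. The call was lost without VHL-KO replicate 1 (unadjusted p = 0.0744) and without VHL-KO;SETD2-KO replicate 2 (0.101), 3 (0.0826) or 4 (0.0656).

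Slc22a5 had 238, 253 and 246 CPM in the VHL-KO libraries and 103, 233 and 155 CPM in the VHL-KO;SETD2-KO libraries. The VHL-KO libraries were nearly equal, and VHL-KO;SETD2-KO replicate 3 lay just below them. The log2 fold change of -0.59 (SE 0.44, unadjusted p = 0.217) did not pass the threshold, and it was -0.93 without both VHL-KO replicate 4 and VHL-KO;SETD2-KO replicate 3. When library sizes were taken without mitochondrial genes, 6 members instead of 7 were free of overlap, against 10.7% of tested genes in this direction. Slc22a5 counts per Slc22a4 count were 3.33, 4.31 and 3.71 in the VHL-KO libraries and 3.38, 8.17 and 4.14 in the VHL-KO;SETD2-KO libraries.

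Slc22a18, a carrier of less settled function that belongs to an imprinted gene cluster, had 345, 291 and 1378 CPM in the VHL-KO libraries and 152, 184 and 157 CPM in the VHL-KO;SETD2-KO libraries. The labels did not overlap, and VHL-KO replicate 4 was 4.33 times the mean of the other VHL-KO libraries, the largest such ratio of the 9. The log2 fold change was -2.03 (SE 0.67, unadjusted p = 0.0156) and became -0.96 without VHL-KO replicate 4. It was no longer called without VHL-KO;SETD2-KO replicate 2 (unadjusted p = 0.0552) or 4 (0.0527).

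Each gene's pattern over the 6 libraries fell into 3 shapes, described here as seen and not tested. Slc22a2, Slc22a6, Slc22a12 and Slc22a18 were high in VHL-KO replicate 4, at 2.34 to 4.33 times the mean of the other VHL-KO libraries, and stood in VHL-KO;SETD2-KO replicate 3 at 0.523 to 1.19 times the mean of its 2 group mates. Slc22a7, Slc22a8 and Slc22a13 were also high in VHL-KO replicate 4, at 2.68 to 3.94 times, but reached 2.79 to 3.54 times their group mates in VHL-KO;SETD2-KO replicate 3. Slc22a4 and Slc22a5 stood at 1.02 and 1.00 times in VHL-KO replicate 4 and at 0.840 and 1.81 times in VHL-KO;SETD2-KO replicate 3. Slc22a4 and Slc22a5 were also the members with the CpG-rich windows shown above, which is a description of 2 genes. The root mean square difference between centred log2 CPM over the 6 libraries was smallest between Slc22a2 and Slc22a6 (0.151) and between Slc22a6 and Slc22a12 (0.157), and largest between Slc22a4 and Slc22a7 (1.08). These differences do not wholly follow the 3 shapes. Slc22a7 was closest to Slc22a13 (0.689) but nearer to Slc22a18 (0.712) than to Slc22a8 (0.924).

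**Figure D3:**
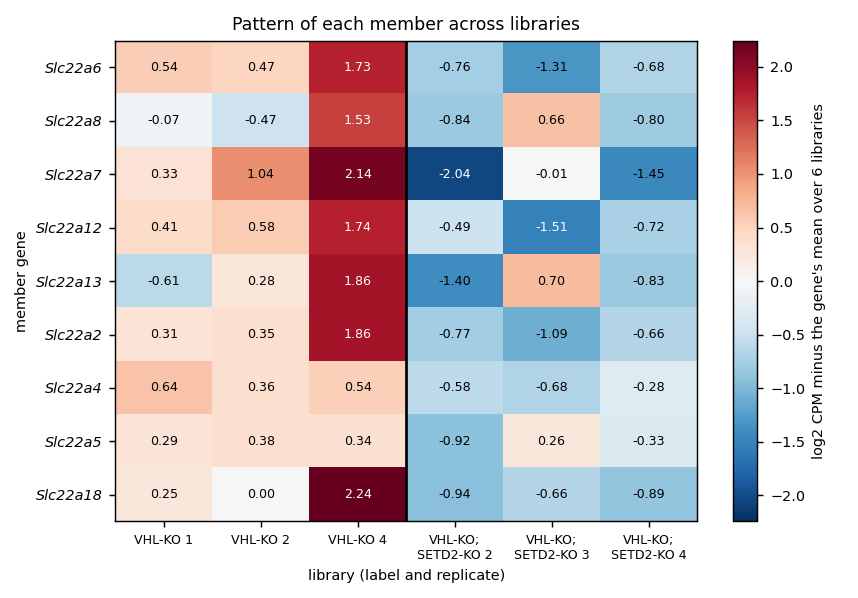
Log2 CPM of each of the 9 Slc22 genes minus its mean over the 6 libraries (colour and printed value), with VHL-KO libraries left of the black line and VHL-KO;SETD2-KO libraries right of it. Red cells in VHL-KO replicate 4 reach 2.24 for Slc22a18, whereas Slc22a4 and Slc22a5 are near their other VHL-KO values there, and Slc22a8 and Slc22a13 are above their means in VHL-KO;SETD2-KO replicate 3.

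Among all tested genes, those closest to Slc22a6 by this measure were Irx3 (0.105), Slc6a9 (0.110) and Ace (0.139), the closest to Slc22a2 were Car4 (0.0688), Lrrc3 (0.0744) and Ovol1 (0.0874), and the closest to Slc22a5 were BC025446 (0.0743), Baiap2l2 (0.0939) and Abcc10 (0.102). The 6 libraries share scaling and 1 library dominates the first 2 patterns.

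Levels between genes were compared as CPM per kilobase of the longest annotated protein-coding transcript. In the VHL-KO libraries the order of mean levels was Slc22a18 (433 ± 395), Slc22a6 (387 ± 207), Slc22a8 (200 ± 156), Slc22a2 (171 ± 115), Slc22a5 (80.3 ± 2.495), Slc22a7 (51.3 ± 32.8), Slc22a4 (29.0 ± 2.85), Slc22a12 (11.1 ± 6.07) and Slc22a13 (7.92 ± 6.90), all as SD over 3 libraries. Between neighbours in this order, only the step from Slc22a4 to Slc22a12 was wider than the SDs. The SDs hold the spread between libraries, which genes of the same library can share. Within each VHL-KO library, Slc22a6 lay above Slc22a8, Slc22a2 above Slc22a5 and Slc22a12 above Slc22a13. Slc22a18 lay above Slc22a6 only in VHL-KO replicate 4 (888 against 626), and below it in replicates 1 (223 against 274) and 2 (188 against 261). In the VHL-KO;SETD2-KO libraries Slc22a8 (119 ± 77.2), Slc22a18 (106 ± 11.01) and Slc22a6 (101 ± 22.4) led within their SDs, followed by Slc22a5 (53.5 ± 21.4) and Slc22a2 (46.9 ± 7.04), whose SDs also overlapped. Slc22a4 (14.2 ± 2.10) and Slc22a7 (10.6 ± 7.98) came next and Slc22a13 (3.66 ± 2.94) and Slc22a12 (2.96 ± 1.01) last. Slc22a8 led only in VHL-KO;SETD2-KO replicate 3 (208). In replicates 2 (73.6) and 4 (75.4) it lay below both Slc22a6 and Slc22a18.

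Leaving out the libraries that differed from the rest changed the fold changes more than the direction. Without VHL-KO replicate 4, 6 members were called lower against 7.15% of tested genes, 1 fitted change was above 0 (Slc22a8) and the median log2 fold change of the 9 was -1.02. Without VHL-KO;SETD2-KO replicate 3, 5 members were called lower against 2.20%, and all 9 were free of overlap, as 18.9% of tested genes were in this direction. Without both, in 2 libraries against 2, 8 members were called lower against 10.4% of genes, and Slc22a8, with a log2 fold change of -0.56, missed the fold threshold. In that fit 8 of 9 had an edgeR adjusted p under 0.05, and 7 of them also reached the fold threshold, which 7.89% of tested genes did in this direction. The median of the 9 was -1.04, the log2 fold changes ran from -2.45 (Slc22a7) to -0.56 (Slc22a8), and Slc22a13 had an adjusted p of 0.107. DESeq2 on all 6 libraries called 6 members lower without adjustment, against 7.79% of genes with a p. After its independent filtering, which left 1292 genes and 5 members with an adjusted value, DESeq2 gave adjusted p = 0.0284 for Slc22a2, adjusted p = 0.0243 for Slc22a6 and adjusted p = 0.0371 for Slc22a18, against 3.87% of those genes called lower. DESeq2's adjusted value was NA for Slc22a4, Slc22a7, Slc22a12 and Slc22a13.

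**Figure D4:**
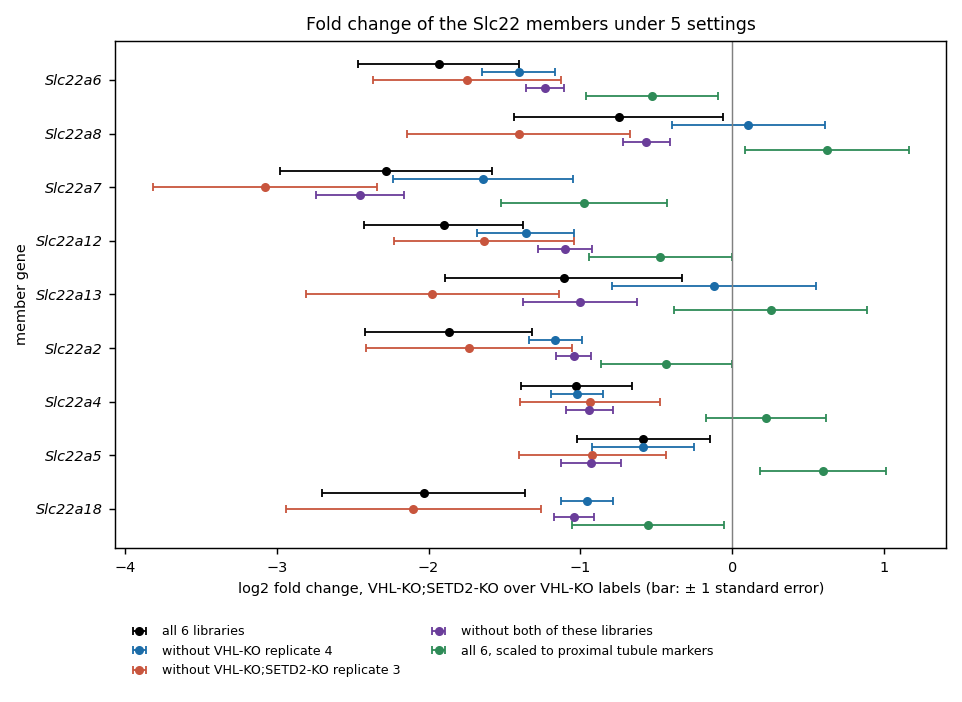
Log2 fold change (VHL-KO;SETD2-KO over VHL-KO, bars ± 1 SE) of the 9 Slc22 genes from edgeR with all 6 libraries, without VHL-KO replicate 4, without VHL-KO;SETD2-KO replicate 3, without both, and with all 6 libraries scaled to 12 proximal tubule markers. The first 4 settings lie below 0 except Slc22a8 at 0.11 without VHL-KO replicate 4, and under the marker scaling Slc22a4, Slc22a5, Slc22a8 and Slc22a13 lie above 0.

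Markers of the proximal tubule also had lower fitted levels in the VHL-KO;SETD2-KO libraries. All 12 markers were detected in every library and all 12 fitted changes were below 0. Of these, 3 were called lower, against 4.68% of tested genes: Slc34a1, the phosphate cotransporter (log2 fold change -1.66), Aqp1, the water channel (-1.39), and Ggt1, a brush border enzyme (-2.27). The labels did not overlap for 4 of the 12, against 11% of tested genes in this direction. The summed level of the markers was 16864 to 27965 CPM in the VHL-KO libraries and 7074 to 9649 CPM in the VHL-KO;SETD2-KO libraries. VHL-KO replicate 4 was the highest library for 7 of the 12, with Slc34a1 at 14181 CPM. It was the lowest for 2, Lrp2 (938 CPM against 3378 and 3344 in VHL-KO replicates 1 and 2) and Slc4a4 (139 against 1162 and 1003). Slc7a13, a marker of the last proximal segment, was at 2.42 CPM in VHL-KO;SETD2-KO replicate 3 and at 214 to 1154 CPM in the other libraries. The 9 transporters summed to 14.3%, 13.7% and 22.9% of the 12 markers in the VHL-KO libraries and 15.7%, 16.7% and 14.3% in the VHL-KO;SETD2-KO libraries. Relative to the summed markers the labels thus overlapped. This sum follows the highest markers more than the 12 alike. In VHL-KO replicate 1, Slc34a1, Lrp2 and Slc27a2 held 4970, 3378 and 3369 of 17308 CPM. In VHL-KO replicate 4, Slc34a1 held 14181 of 27965 CPM. The same limit applies to the scaling that follows. Scaling the libraries to the markers, an alternative chosen after the data were seen, left 0 members called lower, against 0.0684% of genes, and 0 called higher, against 40.6%, and the median log2 fold change of all genes rose by 1.23, to 1.24. On that scale the median of the 9 was -0.43, and the members ran from -0.98 (Slc22a7) to 0.62 (Slc22a8). The median of the 9 minus that of all genes was -1.67, beside -1.88 in the main fit. Rescaling shifts all genes nearly alike, so this gap cannot show how the members stand to the markers. The part that cell composition had in the lower transporter levels was not tested.

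**Figure D5:**
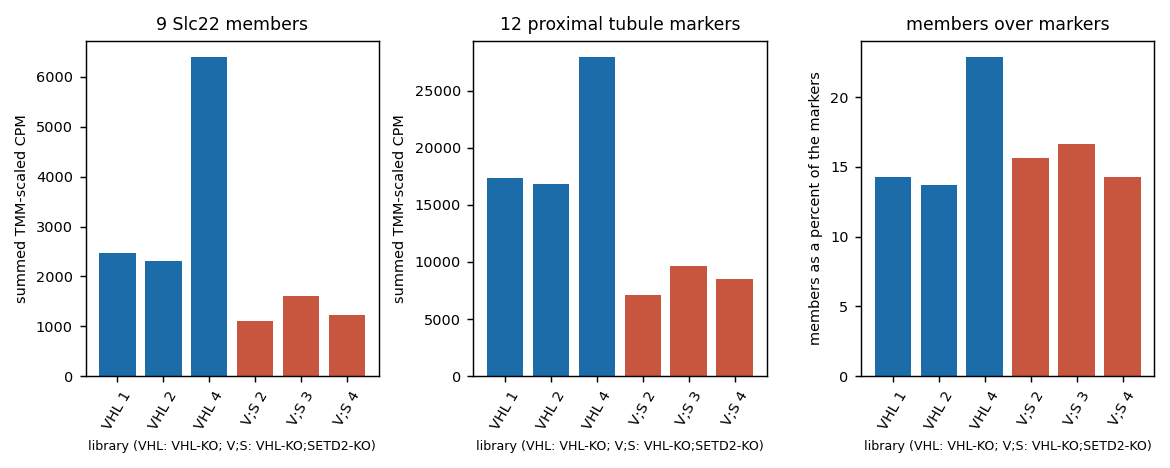
Summed TMM-scaled CPM of the 9 Slc22 genes (left) and of 12 proximal tubule markers (middle), and the first as a percent of the second (right), in each library, with blue bars for VHL-KO (VHL) and red bars for VHL-KO;SETD2-KO (V;S). Both sums are lower in all 3 VHL-KO;SETD2-KO libraries, whereas the percent is between 13.7 and 16.7 in 5 libraries and 22.9 in VHL-KO replicate 4.

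Markers of other kidney cells were present as well. Their calls stand beside 2.66% of all tested genes called higher and 4.68% called lower. Podocyte markers summed to 1435 to 2085 CPM under VHL-KO and 1967 to 4828 CPM under VHL-KO;SETD2-KO, with 3 of 5 called higher, Nphs1 and Wt1 among them. Endothelial markers summed to 1543 to 2121 and 1721 to 4920 CPM with 0 of 6 called. Thick limb and distal tubule markers summed to 1194 to 4796 and 1480 to 4088 CPM, with Calb1 called higher of 6. Collecting duct markers summed to 53.9 to 443 and 78.8 to 232 CPM, with Atp6v1g3 and Slc26a4 called higher of 7. Stromal markers (0 of 6 called) summed to 73.0 to 378 and 79.0 to 194 CPM, and leukocyte markers (C1qa called lower of 6) to 108 to 291 and 67.8 to 257 CPM. Of 4 tested injury markers, Spp1 was called higher and Havcr1, at under 2 CPM in every library, lower. Their part in the result was not tested.

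The genes that work with these carriers were counted in lists of related genes. Of 4 genes that supply the driving force on the blood side, 1 was called lower, the dicarboxylate carrier Slc13a3 (log2 fold change -1.47), whose substrates exchange for anions through OAT1 and OAT3. Of 8 tested genes for exit into the urine, 3 were called lower, namely the cation exporter Slc47a1 (-1.33) and the organic anion and phosphate carriers Slc17a1 (-1.22) and Slc17a3 (-1.37). Their labels did not overlap, and Slc17a1 (533 CPM) and Slc17a3 (609 CPM), like Slc22a4, were not raised in VHL-KO replicate 4. Of 6 genes of urate and monocarboxylate handling, 1 was called lower, the scaffold Slc9a3r1 (-1.74), which binds carriers of the brush border. Of 8 genes of carnitine synthesis and use, 1 was called lower, Aldh9a1 (-1.28), an enzyme of carnitine synthesis. None of the tested genes of these 4 lists was called higher. Over all tested genes, 4.68% were called lower and 2.66% higher.

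Of 5 transcription factors known to act on Slc22 promoters, 3 were called lower and 0 higher, against 4.68% and 2.66% of all tested genes. Hnf4a, 1 of the 3 and a nuclear receptor of the proximal tubule, had 736, 662 and 985 CPM in the VHL-KO libraries and 303, 447 and 412 CPM in the VHL-KO;SETD2-KO libraries. Its log2 fold change was -1.04 (unadjusted p = 0.0402). Its labels did not overlap. Ppara and Nr1h4 were not called. Hnf4a was lower together with the proximal tubule markers, and no binding was measured.

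Of the other 16 Slc22 genes in the table, 11 were tested. Of these, 1 was called lower and 0 were called higher, against 4.68% and 2.66% of all tested genes. The remaining 10 had overlapping labels. Some genes of the mouse cluster on chromosome 19 next to Slc22a8 stood apart in VHL-KO;SETD2-KO replicate 3. There Slc22a30 was at 6.13 CPM and Slc22a28 at 6.18 CPM, against 33.2 to 251 and 46.3 to 140 CPM in the other libraries. Slc22a29 was at 32.0 CPM against 0.280 to 3.15 CPM. Slc22a19 (29.7 CPM against 6.15 to 31.2) and Slc22a26 (8.88 CPM against 1.87 to 10.3) of this cluster lay within the range of the other libraries. In VHL-KO;SETD2-KO replicate 3, Slc22a5, Slc22a7, Slc22a8, Slc22a13 and Slc22a18 were the highest of their label, and Slc22a2, Slc22a4, Slc22a6 and Slc22a12 the lowest.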

How the data were processed

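Poly(A) or total RNA selection was not given in the sources used here. Per the labels and the methods, total RNA was extracted with Trizol, libraries were made with a directional kit and sequenced on an Illumina platform as paired ends, and the submitters' processing notes name HISAT2 2.0.4 and GRCm38. The authors deposited raw counts per gene symbol, 1 column for each library. The counting program, the annotation and the strand setting were not given in the sources used here. The labels do not tie the libraries to litters, and p-values measure the spread between these 6 libraries.

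From the deposited counts, 14611 of 46095 genes passed filterByExpr and were tested with edgeR 4.0.16 in R 4.3.3 (TMM, quasi-likelihood test, Benjamini-Hochberg adjustment), with the label as the only factor. The study's own tool, DESeq2 1.42.0, limma 3.58.1 (voom) and other scalings, filters and subsets of libraries were alternatives. Log2 CPM used a prior count of 2. Totals of 11168552 to 17883466 counts set the depth. The scripts were checked on simulated counts with known changes. Those counts held no library that stood apart and no difference of sex, so the check does not cover how the fits handle these. Transcript lengths, positions and overlaps came from GENCODE M21, and promoter windows from RefSeq. Of the per-library columns, 0 were left out.

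The members and the gene lists were chosen with earlier results of these data known. The genes named are the 9 members, the targeted genes and Cdh16, genes of each list that were called, the 3 tested genes most like Slc22a6, Slc22a2 and Slc22a5, and Xist with the Y-linked genes. Other names, among them Slc7a13, Ppara, Nr1h4 and the Slc22 genes of chromosome 19, were chosen after their values were seen. Some genes counted in the lists are not reported by name here.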

Additional observations from a re-analysis of the deposited data

How the results depend on the processing

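The count of 6 members called lower stayed between 5 and 8 under DESeq2's size factors in edgeR, limma-voom, the Wald test of DESeq2, no filter, at least 10 counts in every library, library sizes without mitochondrial genes, a fold change of at least 2 and the removal of both unlike libraries. In these settings 3.33% to 10.4% of tested genes were called lower. Under each alternative 0 members were called higher, against 0.637% to 40.6% of tested genes. Leaving out 1 library at a time gave 4 to 6 members called lower, against 1.37% to 7.15% of tested genes, and 7 to 9 without overlap, against 12.1% to 21.4%. Slc22a4 lost its call without the filter (unadjusted p = 0.0549) and without VHL-KO replicate 1 or any of the VHL-KO;SETD2-KO replicates, and Slc22a18 lost it without VHL-KO;SETD2-KO replicate 2 or 4. Slc22a8 ran from -1.41 to 0.11 on the log2 scale, the latter without VHL-KO replicate 4. Scaling to the proximal tubule markers, chosen after the data were seen, gave 0 members called lower and 0 without overlap, and turned Slc22a4 to 0.22, Slc22a5 to 0.60, Slc22a8 to 0.62 and Slc22a13 to 0.25. By construction that scaling removes what the members share with the markers.

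Replicate numbers 2 and 4 occur under both labels. The deviations of same-numbered libraries from their label means correlated at 0.16 and -0.32. These values cannot settle whether the numbers pair the samples. Each label mean rests on 3 libraries, and VHL-KO replicate 4 stood apart from the rest. With the replicate block 2 members were called lower (Slc22a7 and Slc22a13), and 0.370% of tested genes were, since replicates 1 and 3 then add nothing to the contrast. At this depth the lowest member count was 60, for Slc22a13, and the number of libraries limits the precision more than counting does.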

Other observations

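Cdh16, whose promoter drives the Cre, had 530, 516 and 2252 CPM in the VHL-KO libraries and 331, 683 and 358 CPM in the VHL-KO;SETD2-KO libraries, with a log2 fold change of -1.27 (SE 0.70, unadjusted p = 0.106 by edgeR's quasi-likelihood test). Like 7 of the 9 Slc22 members it was highest in VHL-KO replicate 4, where 5842 of the 14611 tested genes were highest. Of the 11 tested members of the family that were not among the 9, 4 had fitted log2 fold changes above 0, with overlapping labels. They were Slc22a29 (2.77), Slc22a15 (0.96), Slc22a21 (0.39) and Slc22a26 (0.05). Slc22a29 was at 32.0 CPM in VHL-KO;SETD2-KO replicate 3 and at 0.280 to 3.15 CPM in the other libraries.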
